A study of Macaca mulatta with 6 samples.

Results

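The genes described here encode collagens, laminins, other structural proteins of the extracellular matrix, the matrix metalloproteinases (MMPs) that cut them and the tissue inhibitors (TIMPs) that block those enzymes. They were chosen by symbol: collagen chains, laminin chains, fibulins, fibrillins, MMPs and TIMPs, together with FN1, DCN, LUM, BGN and SPARC. This gave 78 genes among 11963 on probe sets that name 1 gene. Where a gene had several probe sets, the one with the highest mean over the 6 arrays stood for it, and 49 of the 78 lay at or above the level filter and were tested. The filter was a mean log2 value of 7.30, an intensity of about 156.8, which is the median over probe sets other than controls. The choice used symbols and mean signal, not differences between arrays.

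Left adrenal glands of 6 ovariectomized female rhesus macaques were each hybridised to 1 Affymetrix human expression array. The groups are the clock times 3 AM, 7 AM, 11 AM, 3 PM, 7 PM and 11 PM, with 1 animal each, so no time was replicated and the error in every test is the spread of single animals. All 6 animals had been kept for months in a 12 h light and 12 h dark cycle and were fasted before necropsy. The 3 AM and 7 AM animals were both aged 12 years. The 11 AM animal was aged 10 years plus 37 days, and the youngest, at 7 PM, 7 years plus 82 days. The remaining animals were aged 8 years plus 106 days (3 PM) and 8 years plus 70 days (11 PM). The cosine accounted for 0.947 of the variance of age, so age and clock time cannot be told apart. The probes were designed on human sequence, so signal is not read as the relative amount of different transcripts. Array medians were 154 to 173.1, and the 3' to 5' signal ratio of GAPDH, a sign of RNA integrity, was 0.721 to 1.16. The same ratio of ACTB was 0.610 to 0.819. In bulk tissue, fewer cells of a type and less RNA per cell cannot be told apart.

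The extracellular matrix is the protein scaffold around cells. Fibrillar collagens give tissue its tensile strength, and type IV collagen and laminins form the basement membranes under endothelium and around epithelial cell cords. In the adrenal, fibroblasts of the capsule and stroma and the dense sinusoidal vessels are sources of these proteins. MMPs cleave matrix proteins and are held in check by TIMPs.

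Among the 49 tested matrix genes, 0 followed a 24-h cosine at an unadjusted p under 0.05 by limma's moderated F test, where 5.56% of all 7164 genes tested did. The smallest p was 0.0596, for COL3A1 (adjusted p = 0.836). The fitted peak-to-trough difference of the matrix genes had a median of 0.40 on the log2 scale, against 0.43 over all genes tested. After adjustment 0 of the 7164 genes passed, and the ordinary F test without moderation gave 2 matrix genes at the unadjusted threshold, LAMB3 and MMP25. Leaving out 1 array moved the count of 0: it was 1 without 3 AM (COL5A1), 2 without 7 AM (COL14A1 and MMP19), 3 without 7 PM (COL3A1, FBLN1 and MMP8) and 2 without 11 PM (COL3A1 and COL9A2), and 0 without 11 AM or 3 PM. In these fits 5.05% to 7.48% of all genes tested passed, and 3 of 49 is 6.12%. The genes that passed differed from array to array, with COL3A1 in more than 1 of these fits.

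The highest array exceeded the lowest by a median of 1.59-fold among the matrix genes and 1.69-fold among all genes tested. This range was above 2-fold in 12 of 49 matrix genes, or 24.5%, against 27.6% of all genes tested. The widest was TIMP2 at 4.35-fold, and the steadiest was MMP24OS, an antisense transcript at the MMP24 locus that the symbol rule took in, at 1.20-fold. The level of MMP24OS is uncertain, since it can overlap MMP24.

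**Figure D1:**
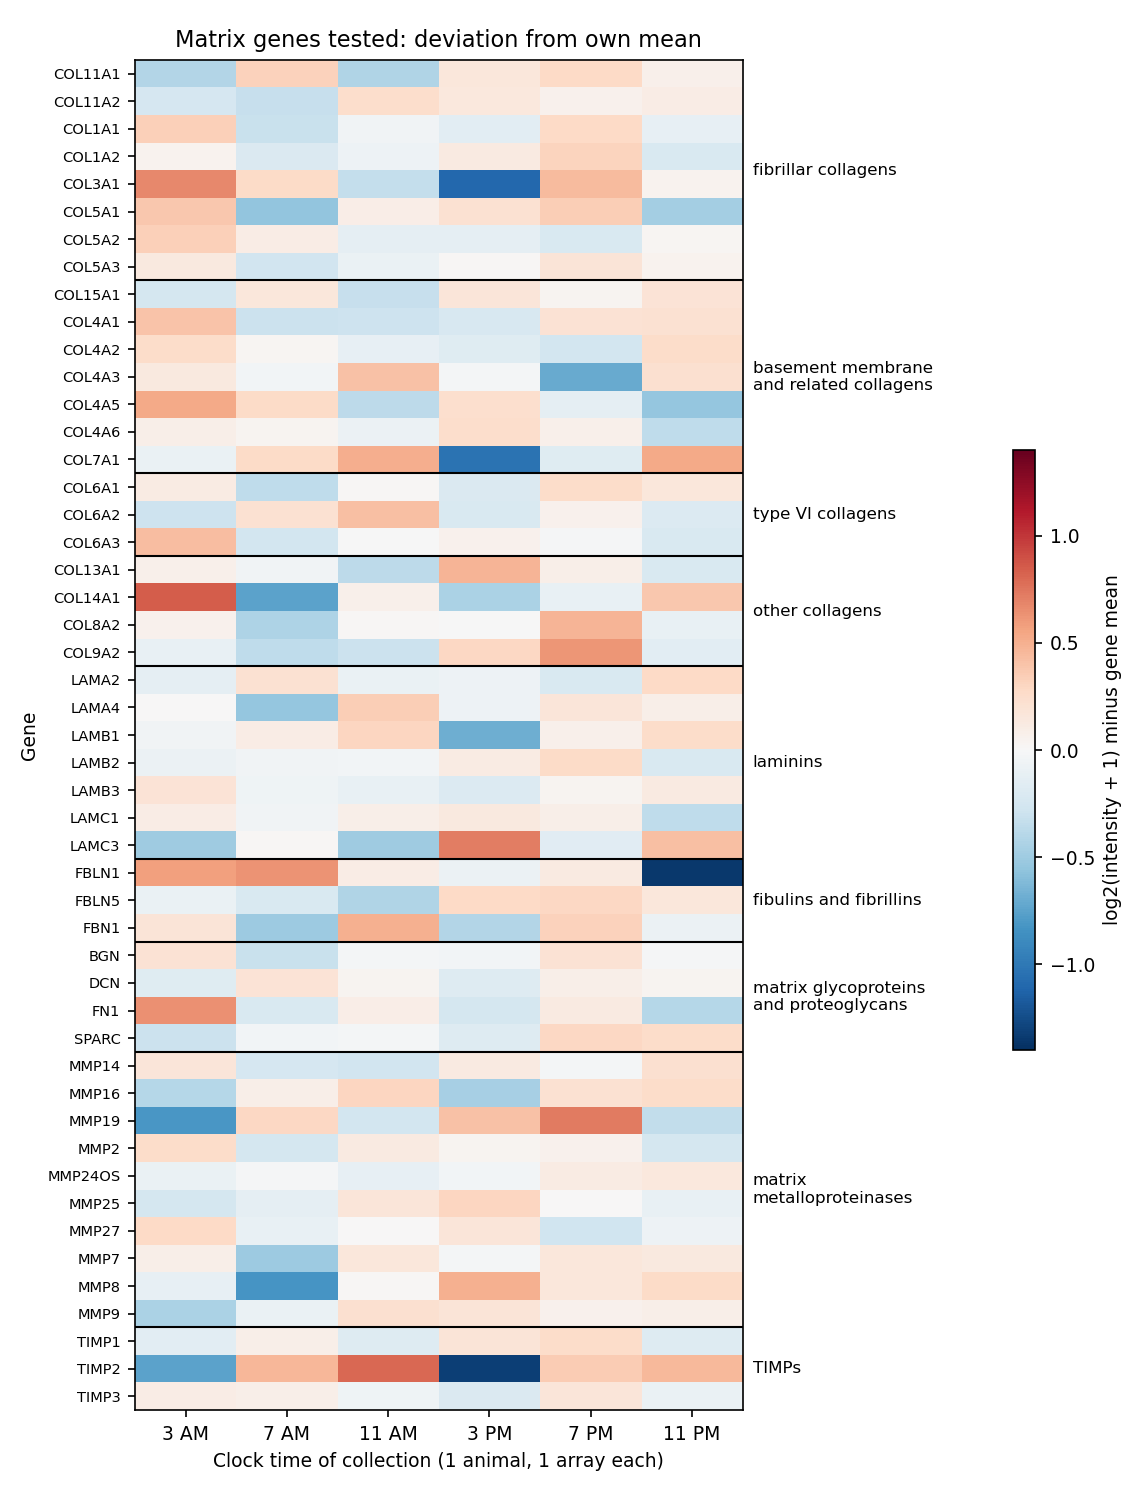
Deviation of each of the 49 tested matrix genes from its own mean on the 6 arrays, in log2(intensity + 1), grouped by role; red is above and blue below the mean, and each column is 1 animal. Most cells are pale, and the strong ones fall on single genes such as TIMP2 at 3 PM and FBLN1 at 11 PM rather than on a whole role.

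In the daytime contrast, arrays at 7 AM, 11 AM and 3 PM were set against those at 7 PM, 11 PM and 3 AM, 3 arrays against 3. By limma 3 of the 49 matrix genes had an unadjusted p under 0.05, all lower by day: COL4A1, COL3A1 and COL14A1. Over all genes tested 5.39% passed this threshold in either direction and 2.44% were lower by day at it, with 2.95% higher by day. None of the 3 passed adjustment over all genes (adjusted p = 0.766 for COL4A1, 0.894 for COL3A1 and 0.834 for COL14A1), nor did any of the 7164 genes. Without a threshold, 30 of 49 matrix genes, or 61.2%, were lower by day, against 50.9% of all genes tested. The median difference was -0.11 on the log2 scale, against 0.00 over all genes (-0.004). With the day taken as 11 AM to 7 PM in place of 7 AM to 3 PM, 0 matrix genes passed by limma, and COL4A1 had a difference of -0.21. The share of all genes that passed with that split is not given here, so this count of 0 has no background beside it. An exact test of 3 arrays against 3 cannot go below 0.1.

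**Figure D2:**
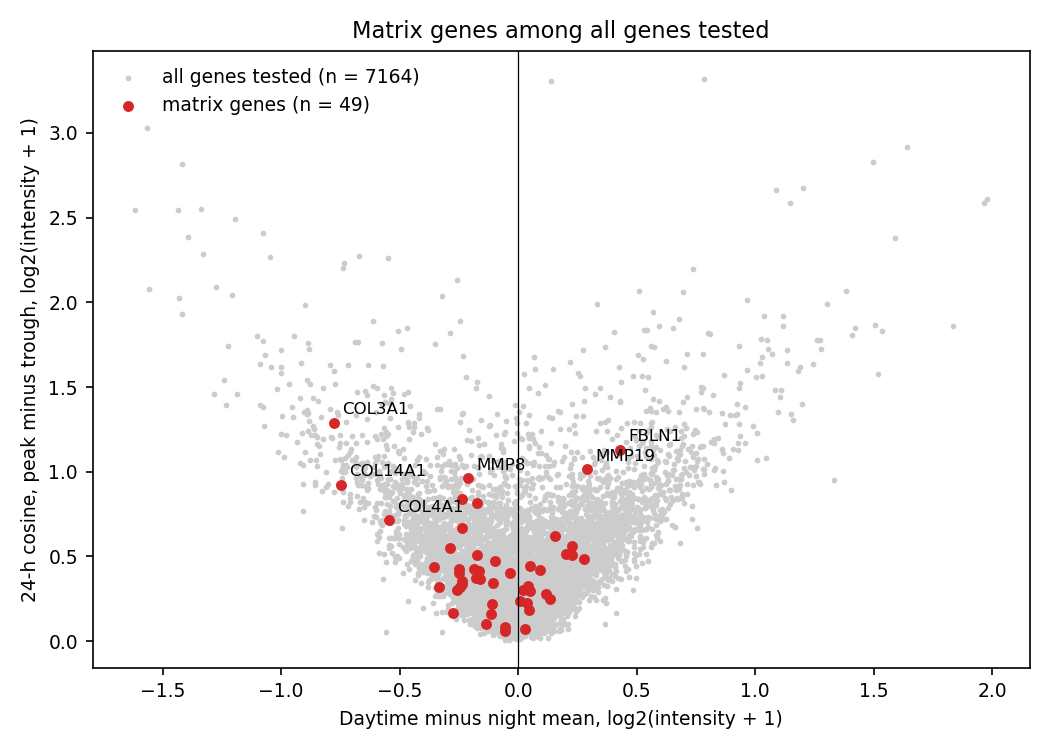
Fitted 24-h peak-to-trough difference (vertical) against the daytime minus night difference (horizontal), both in log2(intensity + 1), for 7164 tested genes in grey and 49 matrix genes in red. COL4A1, COL3A1 and COL14A1 lie on the left edge of the matrix genes, and FBLN1 and MMP19 on the right.

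COL4A1 encodes a chain of type IV collagen, the network-forming collagen of basement membranes. Its intensities were 1583 at 3 AM, 1383 at 7 PM and 1384 at 11 PM, and 974 at 7 AM, 977 at 11 AM and 1025 at 3 PM. All 3 night arrays lay above all 3 daytime arrays. The night mean was 1.46 times the day mean (log2 difference, day minus night, -0.54 ± 0.18, SE, unadjusted p = 0.0131 by limma). It kept an unadjusted p under 0.05 without any 1 of the 6 arrays, with differences from -0.58 to -0.48. Without the 3 AM and 3 PM arrays together it was -0.50 and missed the threshold (unadjusted p = 0.0573 by limma).

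A second probe set of COL4A1 gave intensities of 863 at 3 AM, 968 at 7 PM and 936 at 11 PM, and 653 at 7 AM, 360 at 11 AM and 615 at 3 PM. The daytime and night arrays did not overlap on it either. The log2 difference there was -0.81, with the night mean 1.75 times the day mean (unadjusted p = 0.0118 by limma over 9830 probe sets, of which 5.53% passed). This probe set also followed the 24-h cosine at the unadjusted threshold (unadjusted p = 0.0154 by limma), where 5.58% of probe sets did. The probe set that represents the gene did not (unadjusted p = 0.0917 by limma). Both probe sets read the same 6 RNA samples.

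COL4A2 encodes the partner chain of COL4A1, and the genes lie next to each other in the macaque annotation. Its intensities were 1455 at 3 AM, 1018 at 7 PM and 1454 at 11 PM, and 1236 at 7 AM, 1119 at 11 AM and 1083 at 3 PM. The 7 PM array, high for COL4A1, was the lowest for COL4A2, and day and night overlapped (log2 difference -0.17 ± 0.21, SE). The difference between the 2 genes was not tested. A second probe set of COL4A2 disagreed with the first: it was lowest at 3 AM (585) and highest at 7 PM (1292), the reverse of the probe set that represents the gene. Its slope on age was -0.17 on the log2 scale per year (unadjusted p = 0.0141 by limma), where 6.23% of 9830 probe sets passed. On the representing probe set the slope was 0.05, opposite in sign.

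The other tested basement membrane and related collagens were COL4A3, COL4A5, COL4A6, COL7A1, which builds anchoring fibrils, and COL15A1, a collagen found at basement membranes. None passed the cosine, the daytime contrast or the age slope over all 6 arrays. COL7A1 had the widest range of this role, from 88.5 at 3 PM to 264 at 11 PM, 2.96-fold, with 3 PM apart from the other arrays. COL4A3 fell between 137 at 7 PM and 299 at 11 AM.

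Fibrillar collagens had 8 of 9 members tested, and 1, COL3A1, passed the daytime contrast. COL3A1 encodes type III collagen, which forms the reticular fibres of soft organs. Its intensities were 1433 at 3 AM, 1223 at 7 PM and 934 at 11 PM, and 1081 at 7 AM, 716 at 11 AM and 420 at 3 PM. The day and night arrays overlapped, since 7 AM lay above 11 PM, and 3 PM was the lowest. The night mean was 1.71 times the day mean (log2 -0.78 ± 0.34, SE, unadjusted p = 0.0479 by limma). This call was lost when 1 of 4 arrays was left out, 3 AM (-0.64), 11 AM (-0.81), 3 PM (-0.42) or 7 PM (-0.75), and when arrays were centred on the median (-0.81, unadjusted p = 0.0501 by limma) or no filter on level was set.

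The 24-h curve of COL3A1 peaked at 2.03 h and was 2.44 times its trough (log2 1.29 ± 0.45, SE), with an exact order p = 0.217 over the 60 circular orders of the arrays. It passed the threshold when arrays were centred on the median (unadjusted p = 0.0445 by limma). Of the other probe sets of COL3A1, one had 600 at 3 AM and 316 at 3 PM as extremes, on the same arrays as the first (log2 difference, day minus night, -0.53, unadjusted p = 0.0372 by limma). Another ran from 392 at 3 AM to 143 at 11 PM, with a log2 difference of -0.08.

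Type I collagen, the main collagen of dense connective tissue, is built from COL1A1 and COL1A2. COL1A1 ran from 1153 at 7 AM to 1801 at 3 AM, and COL1A2 from 2804 at 11 PM to 4018 at 7 PM. Neither passed a test; the log2 differences, day minus night, were -0.33 ± 0.20 and -0.10 ± 0.21 (SE). A second probe set of COL1A2, at 84.2 to 269, was higher by day (log2 0.76, unadjusted p = 0.0311 by limma), opposite in sign to the probe set that represents it. COL5A1, COL5A2 and COL5A3, which regulate fibril width, had ranges of 1.92, 1.46 and 1.36-fold.

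COL5A2 neighbours COL3A1 in the macaque annotation. It ran from 294 at 7 PM to 430 at 3 AM, so both genes were highest at 3 AM but their lowest arrays differed. COL11A1 and COL11A2, chains of a collagen best known from cartilage, ranged 1.67 and 1.48-fold, and COL2A1, the main cartilage collagen, lay below the level filter with 46.7 to 136.

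COL14A1, a fibril-associated collagen, was the third gene lower by day. Its intensities were 683 at 3 AM, 354 at 7 PM and 492 at 11 PM, and 225 at 7 AM, 399 at 11 AM and 279 at 3 PM. Day and night overlapped, since 11 AM exceeded 7 PM, and the 3 AM array stood highest. The night mean was 1.68 times the day mean (log2 -0.75 ± 0.30, SE, unadjusted p = 0.0341 by limma). The call was lost on leaving out 3 AM (-0.51), 7 AM (-0.56), 3 PM (-0.71) or 11 PM (-0.75), and with no filter on level (unadjusted p = 0.0609 by limma). On its second probe set above the filter the difference was -0.08, with 267 at 3 AM as the highest array there too and 7 PM as the lowest.

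Of the 11 collagens grouped as other collagens, which assemble on fibrils, in networks or in membranes, 4 were tested. COL9A2 ran from 148 at 7 AM to 291 at 7 PM. Its 24-h curve peaked at 18.3 h (log2 0.84 ± 0.31, SE, unadjusted p = 0.0733 by limma). COL8A2, a network collagen, was also lowest at 7 AM (191) and highest at 7 PM (359), and COL13A1, a transmembrane collagen, ranged 1.78-fold. The 7 members below the filter were COL8A1, COL9A1, COL9A3, COL10A1, COL16A1, COL19A1 and COL21A1.

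Type VI collagen forms beaded filaments around cells and needs chains from COL6A1, COL6A2 and COL6A3. COL6A1 was 723 at 3 AM, 796 at 7 PM and 747 at 11 PM, and 522 at 7 AM, 677 at 11 AM and 580.5 at 3 PM. Its night arrays all lay above its daytime arrays, by 1.28-fold in the means (log2 -0.36 ± 0.19, SE, unadjusted p = 0.0901 by limma). Its neighbour COL6A2 ran the other way in sign (0.28 ± 0.22), with 306 at 3 AM and 499 at 11 AM as its extremes. COL6A3 ranged from 857 at 7 AM to 1386 at 3 AM. None of the 3 passed a test. A second COL6A1 probe set above the filter was higher by day in sign (log2 0.36), from 261 at 11 PM to 512 at 11 AM. On the remaining COL6A1 probe sets above the filter day and night overlapped.

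**Figure D3:**
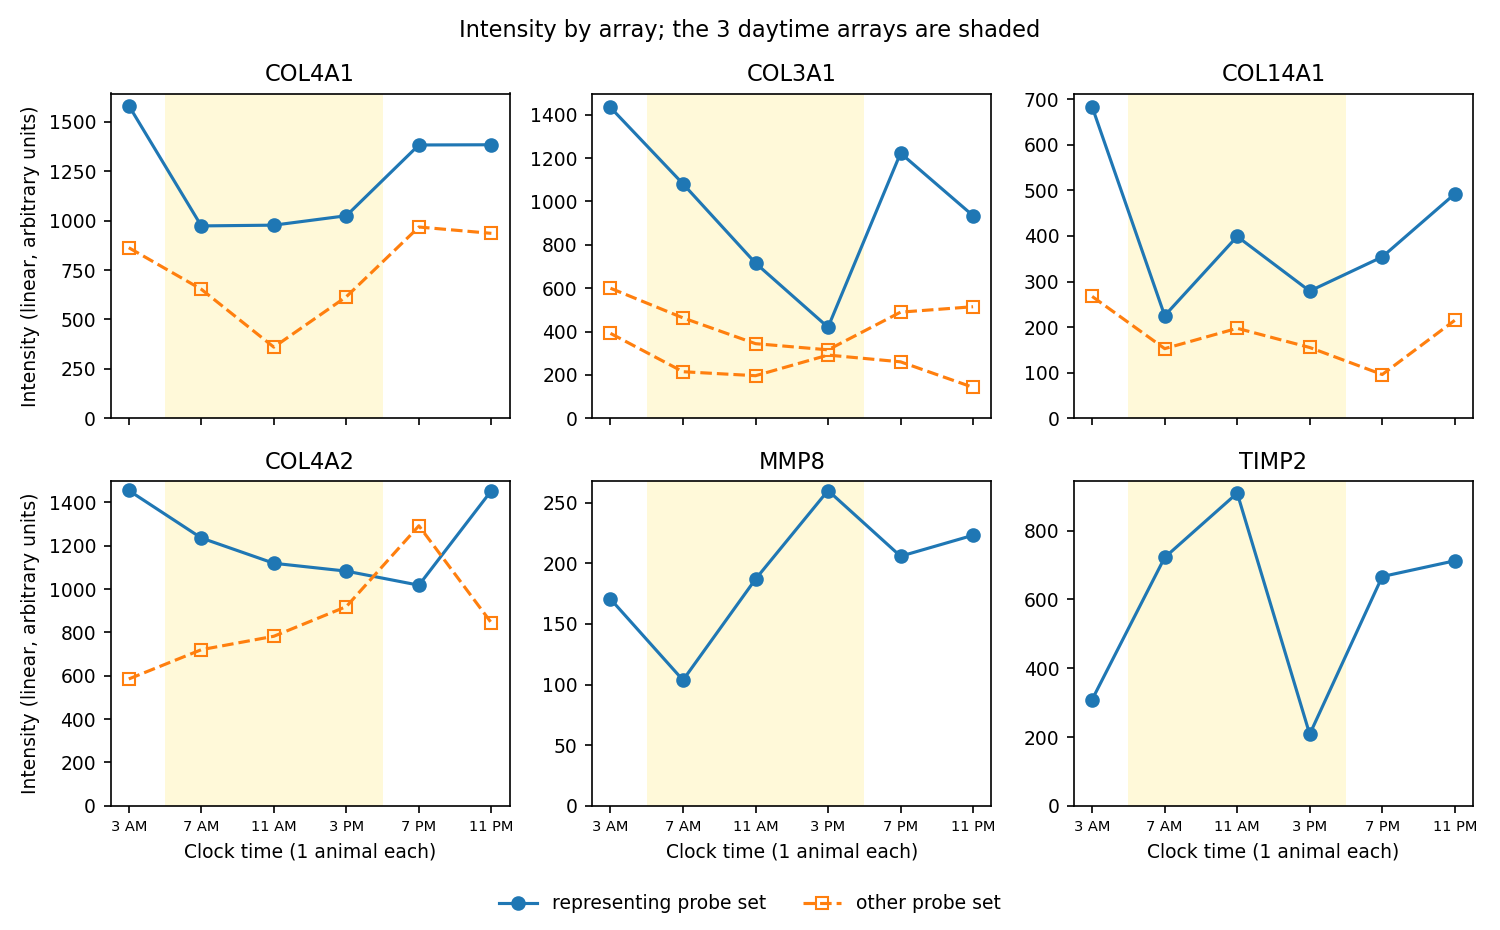
Intensity (linear, arbitrary units, from 0) by clock time for 6 matrix genes, with the daytime arrays shaded; filled circles are the representing probe set, open squares other probe sets above the level filter, and lines join different animals. Both COL4A1 probe sets lie higher on the 3 night arrays, the COL4A2 probe sets run apart, and TIMP2 is low at 3 AM and 3 PM.

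Separation of the arrays without a threshold on p was seen in 5 matrix genes, all lower by day: BGN, COL4A1, COL5A3, COL6A1 and LAMB3. That is 10.2% of the 49, against 5.26% of all genes tested in that direction. Another 5.61% of all genes separated in the other direction, and 0 of the matrix genes did. On other probe sets above the filter COL4A1 separated again, but COL6A1 and BGN overlapped, with BGN highest at 3 PM (278). COL5A3 and LAMB3 had no other probe set above the filter. LAMB3 shows how small such a separation can be: its night arrays were 207 at 3 AM, 186 at 7 PM and 197 at 11 PM, and its daytime arrays 174, 167.5 and 158.5. The log2 difference was -0.24 ± 0.17 (SE).

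Laminins are trimers of an alpha, a beta and a gamma chain that anchor cells to basement membranes. Of 10 members 7 were tested, and 0 passed in any of the 3 fits; 4 of 7 were higher by day in sign. LAMA2 ranged from 518 at 7 PM to 727 at 11 PM, LAMB1 from 300.0 at 3 PM to 592 at 11 AM, and LAMC1 from 452 at 11 PM to 638 at 3 PM, so that the chains of 1 trimer had different extremes. LAMC3 had the widest range, 2.32-fold, from 128 at 11 AM and 3 AM to 298 at 3 PM. LAMB3 had the highest R2 of the curve among the genes named by rule (0.899), with an exact order p = 0.0833 and 0.0333 under quantile normalization, on a peak only 1.28 times its trough. LAMA1, LAMA5 and LAMB4 lay below the filter.

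Fibrillins build the microfibrils of elastic fibres, and fibulins are matrix proteins grouped with them here. FBLN1 had 534 at 3 AM, 551 at 7 AM, 382 at 11 AM, 338 at 3 PM, 389 at 7 PM and 140 at 11 PM. The 11 PM array stood apart, giving a range of 3.92-fold. The smooth muscle markers also had their lowest sum on that array (3744), and their part in the FBLN1 value was not tested. The slope of FBLN1 on age was 0.22 ± 0.10 on the log2 scale per year (SE, unadjusted p = 0.0612 by limma). Without the 7 PM array it was 0.35 (unadjusted p = 0.00938 by limma), the only 1 of the 6 fits with 1 array left out that passed the threshold. Without the 11 PM array the slope fell to 0.12. A second probe set of FBLN1 had 296 at 11 PM, above 254.5 at 11 AM, so the low 11 PM value was not seen there. FBLN5 ran from 586 at 11 AM to 956 at 7 PM, and FBN1, the main fibrillin, from 498 at 7 AM to 1006 at 11 AM.

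FN1 encodes fibronectin, which links cells to collagen. It ran from 1033 at 11 PM to 2120 at 3 AM, and its 4 other probe sets above the filter had their highest value at 3 AM, 7 PM, 7 PM or 3 PM. DCN, the small proteoglycan decorin, was among the steadiest, at 7350.5 to 9477 (1.29-fold), and 2 further probe sets of it ranged from 7175.5 to 9484 and from 2382 to 3259. Another DCN probe set differed, with 404 at 3 PM and 900 at 3 AM. BGN ranged from 295 at 7 AM to 423 at 7 PM, and SPARC, a collagen-binding glycoprotein, from 1242 at 3 AM to 1872 at 7 PM. LUM, the proteoglycan lumican, lay below the filter, with 106 at 3 AM, 2.2 at 7 AM and 1.9 at 7 PM.

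Of 22 members grouped with the MMPs, 10 were tested. The gelatinase MMP2 ran from 1025 to 1456 and its membrane-bound activator MMP14 from 839 to 1183. Neither passed a test, with log2 differences, day minus night, of -0.05 ± 0.21 and -0.25 ± 0.20 (SE). The gelatinase MMP9 ran from 182 at 3 AM to 290 at 11 AM. MMP19 ranged 2.93-fold, from 103 at 3 AM to 304 at 7 PM. Without the 7 AM array its cosine had an unadjusted p = 0.00754 by limma, against 0.154 with all arrays. This was the only 1 of the 6 fits with 1 array left out that passed, and p reached 0.586 by limma in another.

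MMP8, the collagenase of neutrophils, was the only matrix gene whose representing probe set passed the unadjusted threshold in a straight line on age. Of all genes 6.17% passed, 3.38% falling and 2.79% rising with age. Its intensities were 171 at 3 AM and 104 at 7 AM in the animals of 12 years, 187 at 11 AM, 260.1 at 3 PM, 206 at 7 PM and 223 at 11 PM. The oldest animals had the lowest values and the 3 PM animal the highest. The slope was -0.17 ± 0.06 on the log2 scale per year (SE, unadjusted p = 0.0266 and adjusted p = 0.712 by limma). It was -0.09 without the 7 AM array and -0.15 without the 3 PM array, neither past the threshold. By age 0 genes passed adjustment by limma, and 442 passed the unadjusted threshold. The age slope was negative in 29 of 49 matrix genes, or 59.2%, against 52.8% of all genes tested.

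The 12 members grouped with the MMPs that lay below the filter included the collagenases MMP1 (1.1 to 25.1) and MMP13 (10.7 to 26.7), the stromelysins MMP3, MMP10 and MMP11, the elastase MMP12 and the enamel protease MMP20. Several of them lie in a run with MMP7, MMP8 and MMP27 in the macaque annotation. With no filter on level LAMA5, MMP15 and MMP24 passed the unadjusted threshold of the cosine among 78 members, at mean intensities of 113, 16.2 and 55.7, below the filter. This is 3.85% of members, where 5.19% of all 11963 genes passed.

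TIMP1, TIMP2 and TIMP3 were tested, and TIMP4 lay below the filter. TIMP1 ran from 4661 at 11 AM to 6320 at 7 PM and TIMP3 from 1856 at 3 PM to 2393 at 7 PM, ranges of 1.36 and 1.29-fold. Other TIMP3 probe sets above the filter ranged more widely. They ran from 1470 at 7 AM to 2591 at 7 PM, from 213 at 7 AM to 582 at 11 AM and from 168 at 3 PM to 357 at 3 AM. TIMP2, which inhibits MMPs and also takes part in activating MMP2, had 309 at 3 AM and 208 at 3 PM, and 722 at 7 AM, 909 at 11 AM, 666 at 7 PM and 712 at 11 PM. The 3 AM and 3 PM arrays stood apart from the other 4. Spiked-in hybridisation controls, added to every array alike, were low on the same arrays: their geometric mean was 542 at 3 AM and 669 at 3 PM, where the remaining arrays had 948 to 1101, and their part in the TIMP2 values was not tested.

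In all, 6 of 49 matrix genes (COL6A2, DCN, LAMB1, MMP16, SPARC and TIMP2) had both the 3 AM and the 3 PM array below the other 4, or 12.2%, against 7.69% of all genes tested. TIMP2 had 1 probe set naming it alone, so no second reading was at hand. MMP16 had no other probe set above the filter. The other probe sets of COL6A2, DCN, LAMB1 and SPARC above the filter did not repeat this pattern. On that of LAMB1 (174) and on 1 of DCN (900) the 3 AM array was the highest. Without both arrays the daytime count of 3 became 0, with no share of all genes given beside it.

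Counted by array, 38 of 49 matrix genes lay above their own mean at 7 PM, or 77.6%, against 54.1% of all genes tested. The highest array was 3 AM for 13 of them (26.5%, against 17.1%) and 7 PM for 12 (24.5%, against 18.3%), and the lowest was 7 AM for 15 (30.6%, against 21.6%). Only 3 were highest at 7 AM, or 6.12%, against 16.8%. At 7 AM 30 of 49 lay below their own mean, against 52.5% of all genes. Their mean deviation was small: 0.12 on the log2 scale at 7 PM, 0.04 at 3 AM and -0.09 at 7 AM. When arrays were centred on the median, 10 were lowest at 7 AM, or 20.4%, against 15.5% of all genes, and the 7 AM deviation was -0.01. With that centring 9 were highest at 7 PM, or 18.4%, against 17.2%, and 14 at 3 AM, or 28.6%, against 16.4%. The commonest lowest array was then 3 PM, for 12, or 24.5%, against 22.9%. The GAPDH 3' to 5' ratio was 0.721 at 7 AM, the lowest of the 6 arrays, and 1.15 at 7 PM. The ACTB ratio was alike on these arrays, 0.802 at 7 AM and 0.813 at 7 PM, and lowest at 3 PM (0.610). The part of RNA integrity in these counts was not tested. The fitted 24-h curves peaked between 6 and 12 h in 6 matrix genes, or 12.2%, against 24.5% of all genes tested. These are single animals, and the counts carry no test.

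**Figure D4:**
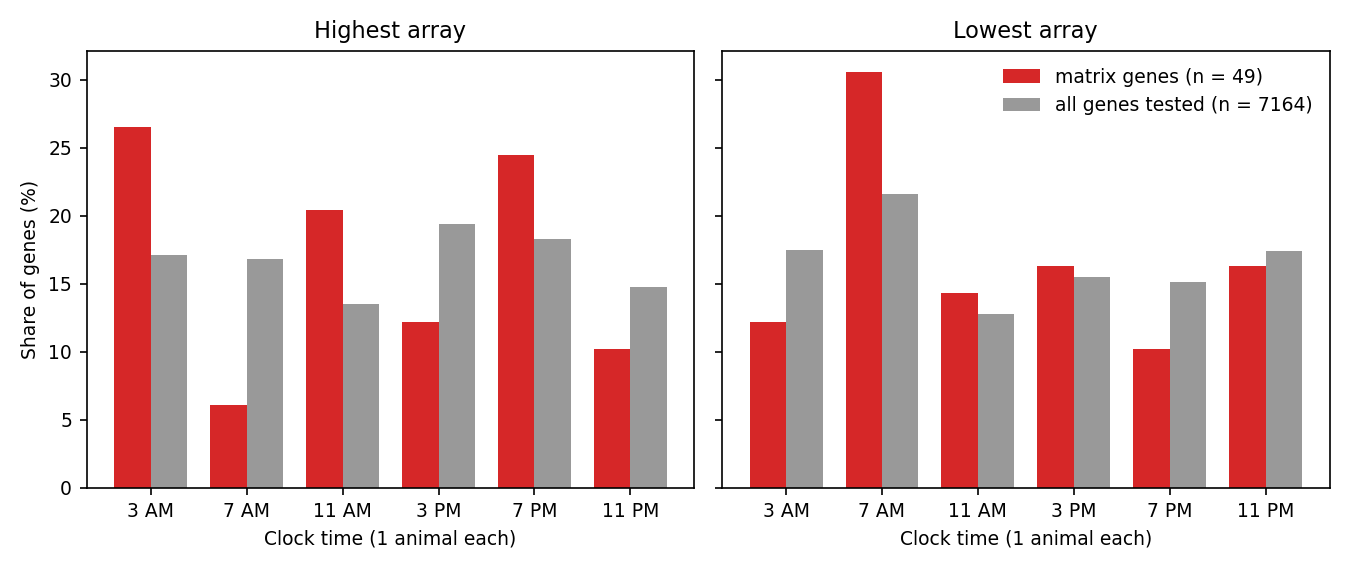
Share of genes, in percent, whose highest (left) or lowest (right) value of the 6 arrays fell at each clock time, for 49 matrix genes and 7164 tested genes; each time is 1 animal. The 3 AM array was highest for 26.5% of matrix genes and 17.1% of all genes, and 7 AM lowest for 30.6% and 21.6% (20.4% and 15.5% with arrays centred on the median), with no test.

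Markers of other cells also differed between arrays, not all in the same direction, and their part in the matrix gene values was not tested. For smooth muscle 5 of 7 listed genes were tested, with mean deviations of 0.55 at 3 AM, 0.74 at 7 PM and -1.14 at 11 PM; the summed intensity of all 7 ran from 4687 to 5730 by day and from 3744 to 8918 by night. The 3 tested of 6 adipocyte markers were lower by day in sign, 2 of them at the unadjusted threshold, against 2.44% of all genes tested. Sums over all 6 were 1638.5 to 2699 by day and 2649 to 4280 by night. Adrenal medulla markers ran the other way, with all 7 on the array tested. At the unadjusted threshold 4 of the 7 were higher by day, against 2.95% of all genes tested. Their sums were 22482 to 36957 by day and 14609 to 22115 by night. Fibroblast and capsule markers outside the chosen matrix genes had 10 of 18 listed genes tested and deviated by 0.26 at 7 PM. Sums over the 14 on the array were 4946 to 5699 by day and 5555 to 6323 by night. This list is not free of matrix proteins: MFAP5, OGN, ASPN, POSTN and VCAN are also among the other matrix proteins listed below. Endothelial markers, 8 of 10 tested, had sums of 3455 to 4536 by day and 3411 to 4345 by night, and no listed marker was at 0 on any array. Pericyte markers, 2 of 4 tested, had their highest sum at 7 AM (11411) and their lowest at 3 AM (5811). The 2 tested markers went apart: at 7 AM 1 was at its highest and 1 at its lowest, and so at 3 AM. Their mean deviations were 0.04 at 7 AM and 0.09 at 3 AM. Macrophage markers had their lowest sum at 7 PM (1208), with 1562 at 7 AM. Sums ran from 1188 at 11 AM to 1456 at 3 PM for lymphocyte markers. For Schwann cell and glia markers they ran from 439 at 3 PM to 709 at 7 PM. Adrenal cortex markers, the defining genes of the labelled tissue, had sums of 61783 to 66301 by day and 56105 to 85860.4 by night. All 9 tested had negative daytime differences and age slopes. At the unadjusted threshold 1 was lower by day, against 2.44% of all genes tested, and 2 fell with age, against 3.38%. The mean deviation of the 9 was 0.40 at 7 PM, with 9 of 9 above their means, and -0.26 at 3 AM.

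Genes that act on the matrix were counted from lists of their own. Of 18 tested genes that modify and cross-link collagen, 2 followed the 24-h cosine at the unadjusted threshold, which 5.56% of all genes passed. P3H2, a prolyl 3-hydroxylase that modifies basement membrane collagen, ran from 847 at 3 AM, 680 at 7 AM, 704 at 11 AM and 448.5 at 3 PM down to 146 at 7 PM and 141 at 11 PM. Its peak was 6.39 times its trough at 8.17 h (log2 2.68 ± 0.56, SE, unadjusted p = 0.00494 by limma), and its slope on age was 0.48 on the log2 scale per year (unadjusted p = 0.00207 by limma). LOXL2, a lysyl oxidase that cross-links collagen, ran the other way in time, highest at 7 PM (394) and lowest at 7 AM (187), with a peak 1.85 times its trough and an age slope of -0.15 on the log2 scale per year (unadjusted p = 0.0312 by limma).

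Of 17 tested proteases and inhibitors outside the MMPs and TIMPs, 1 passed the cosine, against the same 5.56%: ADAM12, a membrane metalloproteinase, from 171 at 3 AM to 443 at 7 PM (peak 2.53 times its trough, unadjusted p = 0.00634 by limma). The age slope of ADAM12 was -0.25 (unadjusted p = 0.00171 by limma). The next smallest p there belonged to ADAM19 (0.207 unadjusted, by limma). Among 17 other matrix proteins, 15 integrins and other receptors and 19 genes of the TGF-beta pathway, which induces matrix genes, 0 passed the cosine. In the daytime contrast 2.44% of all genes tested were lower and 2.95% higher by day at the unadjusted threshold. At it SPARCL1 was lower (log2 -0.62) and SPOCK1 higher by day (0.83) among the matrix proteins. The syndecan SDC2 was lower by day (-0.56) among the receptors. Adjusted over all genes tested, none of these passed.

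On second probe sets, 33 above the filter read 20 of the 49 tested matrix genes. The sign of the daytime difference matched that of the representing probe set in 23 of 33, the highest array in 11 and the lowest in 7. Probe sets of a gene read the same RNA, so a mismatch is not a difference between animals. At the unadjusted threshold 3 of the 33 passed the cosine, 3 the daytime contrast and 1 the age slope, where 5.58%, 5.53% and 6.23% of all 9830 probe sets did.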

How the data were processed

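The authors deposited linear intensity values, 1 for each probe set on each array, between 0.1 and 40394 as read from the values, for 22283 probe sets, 68 of them controls. Trimmed means, with 2% cut from each end, were 325.04 to 325.09, so arrays had been scaled. Per the labels' protocols, RNA was column-purified, amplified by in vitro transcription and hybridised to Affymetrix arrays. Software and summary method: not given in the sources used here. The platform annotation names 1 gene for 19065 probe sets, several for 1043 and none for 2107.

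Values became log2(value + 1), and fold changes are on that scale. Genes were filtered on the mean over all arrays. limma 3.58.1 in R 4.3.3 fitted a 24-h cosine (3 residual degrees of freedom), the daytime contrast and a line on age over 7164 genes, with Benjamini-Hochberg adjustment and a threshold of 0.05. Errors are standard errors of these fits. The fits were tested on simulated data. R2 over 60 circular orders gave exact p-values, at least 0.0167. Named genes are matrix genes past an unadjusted threshold, those with the smallest cosine p, widest range or highest mean in each role, and the 2 smallest cosine p in each pathway list. Others were chosen after their values were seen. Members and lists were chosen with earlier results of these data known. All 78 members were found in the macaque RefSeq annotation (T2T-MMU8v2.0), used only for neighbours.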

Additional observations from a re-analysis of the deposited data

How the results depend on the processing

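Counts of matrix genes at the unadjusted threshold rested on few genes and moved with most choices. For the cosine, 0 of 49 became 3 of 78 with no filter on level (3.85%, against 5.19% of all genes). It was 1 of 24 with a stricter filter (4.17%, against 6.41%). With every probe set on its own it was 3 of 82 (3.66%, against 5.58% of probe sets). Of 49, 1 passed with arrays centred on the median (2.04%, against 5.68%) and 1 with a trend and robust prior (2.04%, against 5.71%). Without moderation 2 passed (4.08%, against 5.75%), and 2 with age as a covariate (4.08%, against 5.95%). In the fit with age the differences of COL7A1 (log2 5.44) and TIMP2 (7.67) exceeded their observed ranges. For the daytime contrast, 3 of 49 became 6 of 82 with every probe set on its own, where 5.53% of all probe sets passed. It became 0 with the day taken as 11 AM to 7 PM and 0 without the 3 AM and 3 PM arrays together. For these counts of 0 the share of all genes is not given here, so they are not read as a change particular to matrix genes. Leaving out these 2 arrays was an alternative chosen after seeing the data. For age, 1 became 2 of 78 when unfiltered, 0 of 24 under the stricter level, 2 when centred, 2 of 82 with every probe set and 0 without moderation. Under the stricter level 237 of 3804 genes passed by age. Shares of all genes by age are not given here for the unfiltered, centred and unmoderated fits. The counts of matrix genes in those fits are therefore not read against a background. By age 6.17% of all genes passed in the main fit, and 6.23% of probe sets with every probe set on its own. Leaving out 1 array gave 0 to 3 for the cosine, 1 to 3 for the daytime contrast and 0 to 4 for age, the 4 without 7 PM. Of all 7164 genes, 362 to 536, 350 to 439 and 372 to 569 passed in these fits. Over all genes, the cosine count of 398 became 621 with no filter and 244 with the stricter one, the daytime count of 386 became 605 and 256, and the age count of 442 became 237 with the stricter filter, all with other numbers of genes tested. After adjustment 1 gene passed the cosine under the stricter filter, and 0 to 1 passed the daytime contrast with 1 array left out. For the other changes the cause was not tested. No paired analysis was possible because the groups share fewer than 2 replicate numbers, each being 1 animal. No background signal was used, and the 29 weak matrix genes are judged by level alone.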
